A study of Homo sapiens and Mus musculus with 74 samples.

Results

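Kidney injury and repair markers are genes whose RNA or protein is measured in kidney tissue or urine to detect tubular damage and the regrowth that follows it. The 10 genes described here are Havcr1, Lcn2, Spp1, Vcam1, Krt8, Krt18, Krt19, Sox9, Timp1 and Ccl5. They were chosen by symbol, with earlier results of these knockout comparisons known, so their knockout values are given as a description. All 10 of the 10 symbols were found in the deposited mouse table, out of 22484 genes with a coding transcript, and each is represented by 1 transcript, the one that encodes its longest protein.

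A damaged proximal tubule sheds its differentiated functions, exposes or secretes injury proteins, and re-enters a developmental program in which surviving cells spread and divide. Havcr1 (KIM-1), a phosphatidylserine receptor, and Lcn2 (NGAL), a siderophore-binding lipocalin, are the best known readouts of the first step. Vcam1 and Ccl5 belong to the inflammatory step, in which adhesion molecules and chemokines draw in leukocytes, and tubule cells that fail to repair are known to carry Vcam1. Sox9 is a transcription factor of regenerating tubule cells, and Krt8, Krt18 and Krt19 are keratins of simple epithelia.

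Tissue came from male mice aged 10 weeks that carried a germline CRISPR-Cas9 deletion of the whole Rpl41 coding sequence (Rpl41 KO), made in C57BL/6J zygotes, and from wild-type (WT) mice. Rpl41 encodes the smallest ribosomal protein, which sits at the interface of the ribosomal subunits. The sources describe no kidney injury or treatment in any group. RNA-seq, which read poly(A) RNA, and Ribo-seq, which read ribosome-protected fragments (RPFs), were available for kidney and brain, and disome-seq, which read the fragment covered by 2 stacked ribosomes, for kidney, with 3 WT and 3 KO libraries in each case. The comparison asked whether loss of Rpl41 raised injury markers in RNA or in footprints. The labels give replicates without saying which animal each came from, so p-values measure the spread between these libraries.

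Transcript counts per library were between 44998381 and 55077048 for kidney RNA-seq, between 11036643 and 42452425 for kidney Ribo-seq and between 1187636 and 3018963 for disome-seq. The deepest and the shallowest kidney Ribo-seq libraries were both KO. The Rpl41 transcript had 5721, 7502 and 3695 reads in WT kidney RNA-seq and 3, 3 and 8 in KO, which fits the labels. Levels are given as reads, or as CPM, reads scaled to a fixed library size, on totals scaled by the trimmed mean of M-values (TMM). The 8 proximal tubule markers summed to 4430 to 4801 CPM in WT kidney RNA-seq and to 4711 to 5319 CPM in KO, and the 6 neuron markers to 0.613 to 1.24 and 0.979 to 2.15 CPM, so the tissue label held in both genotypes. In bulk tissue, fewer cells of a type and less RNA per cell cannot be told apart.

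Translation starts of 4 members are shown because their RNA and footprints are compared below. The lines give the 12 bases before the start codon, the start codon in capitals and the 9 bases after it, from GENCODE M21 transcripts on GRCm38.
Vcam1: cagagacttgaaATGcctgtgaag
Krt8: ccagacttcaccATGtccatcagg
Krt18: tctccagacaagATGagcttcaca
Ccl5: gccgcgggtaccATGaagatctct
A purine 3 bases before the start codon and a G right after it mark the context most favoured by the scanning ribosome. The purine was present in 8 of the 9 members with at least 12 bases before the start codon, and in 84.5% of 19572 genes read the same way, Sox9 being the exception among members. The G was present in 1 of those 9 members, Lcn2, and in 49.5% of all genes. These are descriptions of the sequence, with no measurement of initiation behind them.

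In kidney RNA-seq, none of the 9 members that passed the filter on low counts was called at an adjusted p under 0.05, by edgeR's quasi-likelihood F-test with p-values corrected across 70545 transcripts by the Benjamini-Hochberg method. Of all these transcripts, 7 were called, or 0.00992%. At an unadjusted p under 0.05 there was 1 member, Ccl5, and 11881 transcripts in all. DESeq2 called 1 member, again Ccl5, and 540 transcripts. The median log2 fold change of the tested members was 0.14, beside -0.03 for all transcripts. Timp1 had too few reads to be tested. In 1 of 10 members, Ccl5, the lowest KO library exceeded the highest WT library, whereas 20.2% of all tested transcripts had their groups apart in either direction.

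Ccl5 (RANTES, GRCm38 chr11:83525778-83530518, minus strand, 3 exons) encodes a chemokine that attracts T cells, monocytes and eosinophils. WT kidney RNA-seq held 22, 23 and 21 Ccl5 reads, or 0.429, 0.439 and 0.429 CPM. KO kidney held 78, 70 and 121 reads, or 1.39, 1.66 and 2.95 CPM. The 3 WT libraries sat almost on 1 value, though on 21 to 23 reads each their spread can be smaller than the counting error. The lowest KO library was well above the WT libraries. The log2 fold change was 2.20 (SE 0.41) with an adjusted p of 0.292 (edgeR). Without KO replicate 1, Ccl5 was called at 2.41 (adjusted p = 0.0146), but in that fit 12466 of 73294 transcripts were called as well. With KO replicates 2 and 3 both left out, the difference was 1.68 (adjusted p = 1), with the lone KO library assumed to vary like the WT ones.

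The 250 bases upstream of the annotated start of Ccl5 (GRCm38, chr11:83530519-83530768, minus strand) are shown because it was the member whose RNA separated the genotypes. Capitals mark the TATA box letters TATAAA.
Ccl5 upstream: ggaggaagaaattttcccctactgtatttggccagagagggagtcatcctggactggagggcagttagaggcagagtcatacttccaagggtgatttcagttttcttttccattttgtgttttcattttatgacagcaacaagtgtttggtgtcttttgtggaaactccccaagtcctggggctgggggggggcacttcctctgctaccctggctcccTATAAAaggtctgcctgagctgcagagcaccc
Searched on both strands, TATAAA occurred in this upstream window of Ccl5 and Spp1 among the 10 members, and in 12.5% of 22471 windows of equal length.

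Genes of cytotoxic lymphocytes, which are known to express Ccl5, were read in the same libraries. Nkg7, a granule protein of NK and cytotoxic T cells, had 7, 16 and 8 reads in WT kidney RNA-seq and 36, 15 and 29 in KO. Cd8a, the co-receptor of cytotoxic T cells, had 15, 19 and 7 reads in WT and 33, 12 and 23 in KO. Cd3e had 19, 17 and 3 reads in WT and 35, 7 and 23 in KO. KO replicate 2 held the fewest KO reads for each of these genes, and in reads it overlapped WT. Its scaled total was 42234312, against 48955192 to 52429347 in the WT libraries. On scaled totals its Nkg7 level lay above every WT library, while Cd8a and Cd3e still overlapped. KO replicate 2 also held the fewest KO reads for Ccl5, 70. On scaled totals the lowest KO library for Ccl5 was replicate 1, at 1.39 CPM. The 13 leukocyte markers summed to 37.3 to 48.5 CPM in WT and 47.7 to 51.1 CPM in KO, with Ly6g at 0 in 4 of the 6 libraries, and their part in the Ccl5 difference was not tested.

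Footprints on Ccl5 were scarce. Kidney Ribo-seq held 3, 1 and 0 reads in WT and 0, 9 and 10 in KO, the KO library without a read being the shallowest. Ccl5 was therefore not tested in Ribo-seq, and its translational efficiency (TE) difference, the change in footprints beyond the change in RNA, was -0.77 (SE 1.09, adjusted p = 0.742, edgeR).

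**Figure D1:**
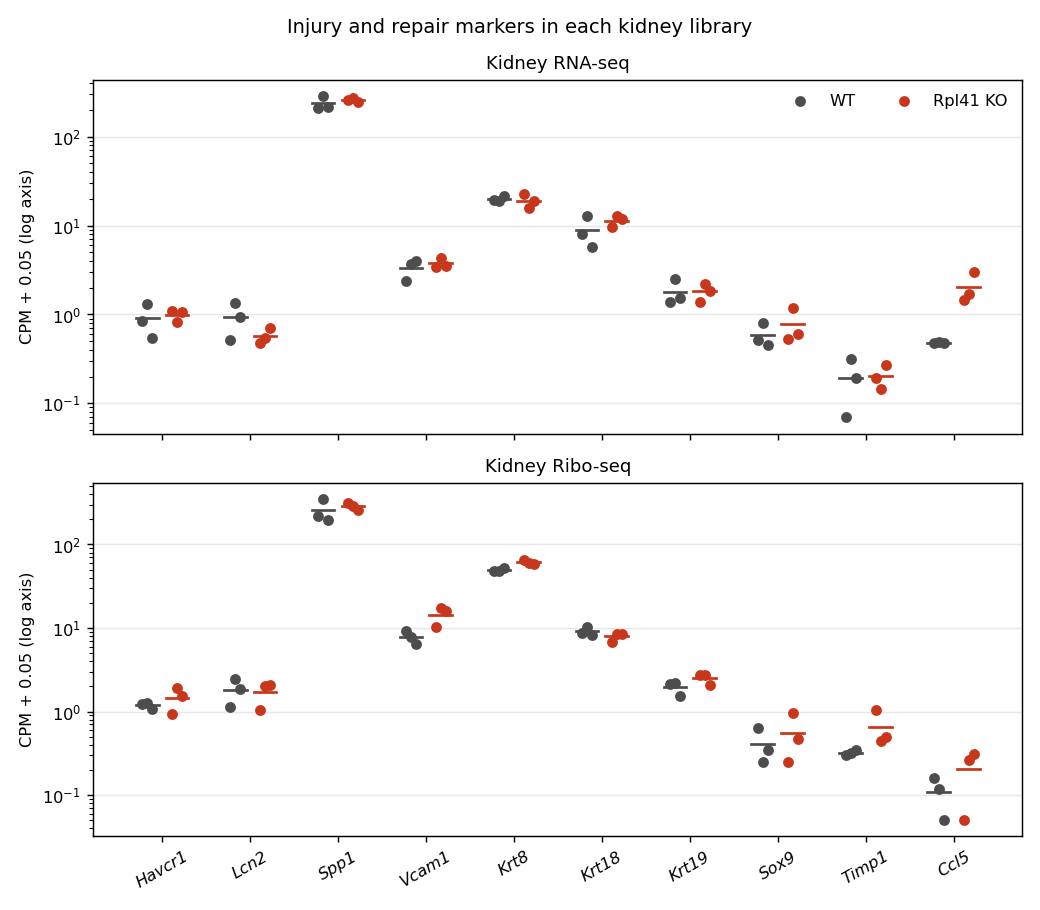
Levels of the 10 markers in each kidney library, RNA-seq above and Ribo-seq below, as CPM plus 0.05 on a log axis. Points are libraries (3 WT in grey, 3 Rpl41 KO in red) and lines are means. Ccl5 RNA and Vcam1, Krt8 and Timp1 footprints have all KO points above all WT points.

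In kidney Ribo-seq, 1 of the 7 members tested was called, Vcam1, and it was higher in KO. Of all 75266 transcripts tested 5838 were called, or 7.76%, with 3573 higher and 2265 lower. When library totals replaced TMM the split was 1531 higher and 2543 lower. The median log2 fold change of the tested members was 0.31, beside -0.01 for all transcripts. In 3 of 10 members (Vcam1, Krt8 and Timp1) the lowest KO library exceeded the highest WT library, against 29.7% of all tested transcripts in either direction.

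Vcam1 (GRCm38 chr3:116109949-116129688, minus strand, 9 exons, 739 residues) encodes the endothelial and epithelial ligand of the leukocyte integrin VLA-4. Its footprints numbered 254, 115 and 87 in WT and 103, 735 and 616 in KO, which on scaled totals were 9.28, 7.73 and 6.39 CPM in WT and 10.2, 17.1 and 15.9 CPM in KO. KO replicates 2 and 3 stood well above WT, and KO replicate 1 only just above the highest WT library. The log2 fold change was 0.91 (SE 0.18) with an adjusted p of 0.0131 (edgeR). It was 0.84 with library totals in place of TMM (adjusted p = 0.0364) and 0.90 by DESeq2 (adjusted p = 0.000975). Without KO replicate 2 it was 0.77 (adjusted p = 0.0796), and without KO replicate 3 it was 0.84 (adjusted p = 0.0748), so the call rested on both.

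Vcam1 RNA did not separate the genotypes. Kidney RNA-seq held 118, 190 and 191 reads in WT and 187, 181 and 143 in KO, or 2.30, 3.62 and 3.90 CPM against 3.33, 4.29 and 3.49 CPM. The log2 fold change was 0.18 (SE 0.27, adjusted p = 0.716, edgeR). The TE difference was 0.71 (SE 0.34, adjusted p = 0.279, edgeR), so a change in footprints beyond RNA was not shown. Disome-seq held 9, 9 and 4 Vcam1 reads in WT and 14, 7 and 4 in KO, or 3.06 to 3.63 CPM and 3.90 to 6.50 CPM, too few to be tested.

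Markers of cells that carry Vcam1 were read beside it. Endothelial markers summed to 105 to 136 CPM in WT kidney Ribo-seq and 146 to 156 CPM in KO, and leukocyte markers to 36.5 to 49.0 CPM and 48.7 to 50.6 CPM. Pecam1, an endothelial adhesion protein, rose by 0.57 (adjusted p = 0.0143, edgeR) and Ptprc, the pan-leukocyte phosphatase CD45, by 0.80 (adjusted p = 0.0298, edgeR) in footprints. Csf1r, the receptor of macrophage colony-stimulating factor, rose by 0.42 (adjusted p = 0.0344, edgeR). Of the 6 endothelial markers tested in footprints, 1 was called and 4 had a positive fold change. Among the 7 leukocyte markers tested, 2 were called and 6 had a positive fold change. Over all transcripts 7.76% were called. These marker calls come from the fit on all libraries and were not repeated with a library left out. In RNA the endothelial sum was lower in KO, at 77.4 to 85.4 CPM against 91.1 to 117 CPM in WT. The part of these cells in the Vcam1 footprints was not tested.

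**Figure D2:**
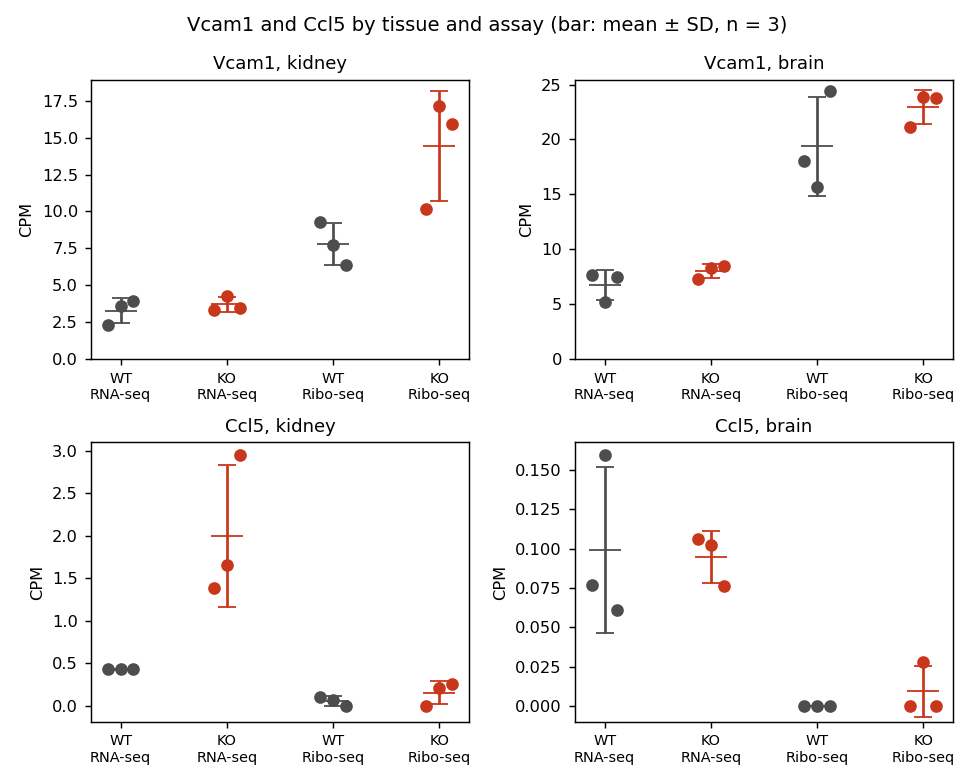
Vcam1 (top) and Ccl5 (bottom) in kidney (left) and brain (right), as CPM per library, with the mean and SD of 3 libraries. In kidney, Vcam1 KO footprints lie at 10.2 to 17.1 CPM against 6.39 to 9.28 CPM in WT, and Ccl5 RNA lies at 1.39 to 2.95 CPM against 0.429 to 0.439 CPM.

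Neither Havcr1 nor Lcn2, the classical injury markers, was called in RNA or in footprints. Havcr1 had 41, 67 and 24 reads in WT kidney RNA-seq and 58, 33 and 42 in KO, with overlapping groups and a log2 fold change of 0.14 (SE 0.45). Its footprints numbered 32, 18 and 14 in WT and 9, 80 and 58 in KO, or 1.03 to 1.21 CPM and 0.889 to 1.87 CPM, and the fold change was 0.44 (SE 0.26, adjusted p = 0.315, edgeR). Fewer than 70 RNA reads in any library carry these values, so a small change was not detectable at this depth.

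Lcn2 was the member with the lowest fold change in kidney RNA. WT libraries held 24, 68 and 44 reads and KO libraries 24, 21 and 27, a log2 fold change of -0.75 (SE 0.49, adjusted p = 0.401, edgeR), with WT replicate 1 inside the KO range. Lcn2 footprints overlapped, at 1.10 to 2.42 CPM in WT and 0.988 to 2.04 CPM in KO, with a fold change of 0.12 (SE 0.29).

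Spp1 (osteopontin), a secreted phosphoprotein of the distal nephron and of injured tubule cells, was the most abundant member. Kidney RNA-seq held 10719, 15095 and 10675 reads in WT and 14519, 11534 and 10166 in KO, a log2 fold change of 0.12 (SE 0.16, adjusted p = 0.657, edgeR). Footprints were 218, 354 and 198 CPM in WT and 318, 289 and 261 CPM in KO, a fold change of 0.17 (SE 0.19). WT replicate 2 was the highest library in both assays. Spp1 and Krt8 were the 2 members with enough disome reads to test, and neither was called (0.24, SE 0.17, and 0.17, SE 0.19), with 0 at an unadjusted p under 0.05 and 0 by DESeq2. The background in disome-seq was 70 of 34754 transcripts, or 0.201%.

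None of the keratins was called, and their fold changes had both signs. Krt8 and Krt18 encode the partners of 1 filament, type II and type I, and lie close together on chromosome 15. Krt8 footprints were 47.4, 47.9 and 52.4 CPM in WT and 66.0, 60.3 and 57.7 CPM in KO, a log2 fold change of 0.31 (SE 0.11, adjusted p = 0.0879, edgeR). The groups did not overlap, yet the value missed the threshold. Krt18 footprints were 8.62, 10.3 and 8.30 CPM in WT and 6.81, 8.44 and 8.45 CPM in KO, a fold change of -0.17 (SE 0.13, adjusted p = 0.44, edgeR). In RNA the order was the other way, with Krt8 at -0.07 (SE 0.17) and Krt18 at 0.36 (SE 0.29), neither called, and TE differences of 0.37 (SE 0.21) and -0.54 (SE 0.37). Krt19, a type I keratin of ducts and progenitor-like cells, had 68, 129 and 73 RNA reads in WT and 75, 92 and 73 in KO, a fold change of 0.00 (SE 0.36), and 0.32 (SE 0.21) in footprints.

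Keratin counts carry an uncertainty of their own, since the authors allowed multimapping reads. Of the 1929 stretches of 30 bases in the Krt8 transcript, 629 also occurred in the pseudogene Krt8-ps, and of 1408 in Krt18, 143 occurred in Gm5200. Vcam1, Ccl5, Lcn2 and Timp1 shared no such stretch with another gene. Timp1 lies inside Syn1 on the opposite strand, and Vcam1 and Krt8 each overlap a predicted gene on the opposite strand (Gm43109 and Gm36026), while Spp1 overlaps Gm42793 on its own strand.

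Sox9 and Timp1 were near the lower limit of measurement in kidney. Sox9 had 24, 39 and 20 RNA reads in WT and 27, 48 and 23 in KO, a log2 fold change of 0.42 (SE 0.51, adjusted p = 0.642, edgeR), and 16, 3 and 4 footprints against 2, 39 and 16. Timp1, an inhibitor of matrix metalloproteinases, had 1, 14 and 7 RNA reads in WT and 8, 4 and 9 in KO. Its footprints numbered 7, 4 and 4 in WT and 10, 17 and 17 in KO, or 0.256 to 0.294 CPM and 0.396 to 0.988 CPM. These separate the groups, but on at most 17 reads a library and without a test.

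Across RNA and footprints together, no member was called for TE among the 10 tested, in DESeq2 either, with 0 members at an unadjusted p under 0.05. The background was 0 of 89685 transcripts, or 0%, with 16939 at an unadjusted p under 0.05 and 4129 called by DESeq2. The Vcam1 value above was the member closest to the threshold.

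**Figure D3:**
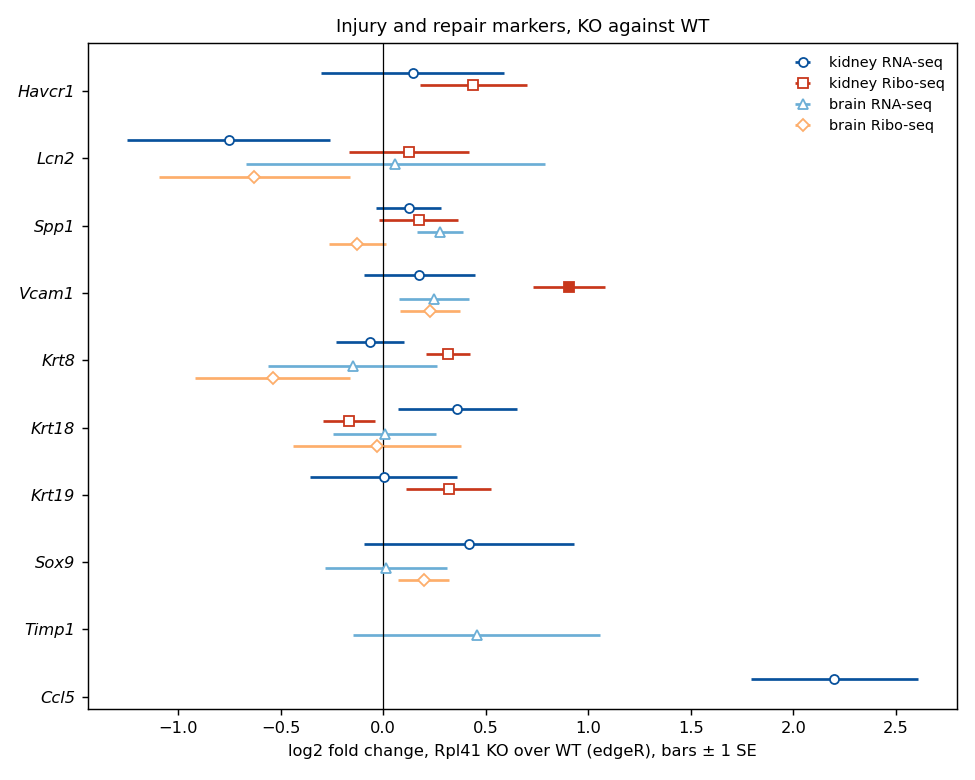
Log2 fold change of each marker, Rpl41 KO over WT, in kidney and brain RNA-seq and Ribo-seq, with bars of 1 SE from edgeR; members that did not pass the count filter have no point. Vcam1 in kidney Ribo-seq (0.91) is the filled point, the one called at an adjusted p under 0.05, and Ccl5 in kidney RNA-seq (2.20) lies farthest to the right.

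Other genes of injury and repair, from lists that hold none of the 10 members, were called in footprints and not in RNA. In kidney RNA-seq 0 genes of the 6 lists were called by edgeR, the lists having 0 to 3 genes each at an unadjusted p under 0.05. Over all transcripts the same contrast held, with 0.00992% called in RNA and 7.76% in footprints. Among 18 injury biomarkers and early stress genes, 16 were tested in footprints and 0 were called, and 3 reached an unadjusted p under 0.05. Clu (clusterin), a secreted chaperone, came closest, at 0.45 (SE 0.13, adjusted p = 0.0513, edgeR). Hmox1, the heme-degrading enzyme induced by oxidative stress, had 630, 708 and 513 RNA reads in WT and 421, 301 and 341 in KO, a log2 fold change of -0.66 (adjusted p = 0.292, edgeR).

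Of 14 chemokine, cytokine and adhesion genes, 6 were tested in footprints and 3 rose, with none falling. These and the list counts that follow stand beside 7.76% of all transcripts called in footprints. The values of list genes come from the fit on all libraries and were not repeated with a library left out. Over all transcripts, 517 were called without KO replicate 2 and 285 without KO replicate 3, against 5838. Cxcl10, an interferon-induced chemokine for T cells, had 26, 12 and 9 footprints in WT and 21, 72 and 86 in KO, or 0.66 to 0.95 CPM and 1.68 to 2.22 CPM. Its log2 fold change was 1.23 (SE 0.25, adjusted p = 0.0139, edgeR). Icam1, a leukocyte adhesion molecule like Vcam1, rose by 0.62 (SE 0.13, adjusted p = 0.0175, edgeR), and Cx3cl1 (fractalkine) by 0.58 (SE 0.12, adjusted p = 0.016, edgeR). Cxcl10 RNA was not called, at 122, 37 and 55 reads in WT and 177, 81 and 190 in KO, and the groups overlapped.

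Of 13 fibrosis and matrix genes, 12 were tested in footprints and 3 rose, with none falling. Among them, Fn1 (fibronectin) rose by 1.00 (SE 0.25) and Pdgfrb, a receptor of pericytes and fibroblasts, by 0.71 (SE 0.16), with adjusted p of 0.0295 and 0.0205 (edgeR). Fn1 RNA was not called, with 460, 842 and 607 reads in WT and 442, 347 and 426 in KO. Of 16 dedifferentiation and repair genes 13 were tested and 1 rose, the cadherin Cdh6 (0.82, SE 0.20, adjusted p = 0.0299, edgeR), while 4 of the 13 had a positive fold change. Of 10 proliferation genes 8 were tested and 1 rose, the replication helicase subunit Mcm2 (0.51, SE 0.12, adjusted p = 0.024, edgeR).

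Some genes of the intact tubule were called higher in KO footprints. Of 16 differentiated tubule genes, all were tested, 4 rose and none fell. Egf, made in the distal nephron, rose by 0.91 (SE 0.15, adjusted p = 0.00701, edgeR), and Slc12a1, the NKCC2 transporter of the thick ascending limb, by 0.82 (SE 0.13, adjusted p = 0.00665, edgeR). The proximal tubule endocytic receptors Lrp2 (megalin) and Cubn (cubilin) rose by 0.62 (adjusted p = 0.0456, edgeR) and 0.61 (adjusted p = 0.0331, edgeR). The median log2 fold change in footprints was 0.58 in the chemokine list, 0.38 in the fibrosis list, 0.31 in the differentiated list, 0.18 in the proliferation list, 0.03 in the injury biomarker list and -0.11 in the dedifferentiation list, against -0.01 for all transcripts.

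Markers of other cells that a kidney sample could hold were read too. In footprints Scnn1g of the collecting duct rose by 0.48, in a list where 2 of 7 genes had a positive fold change and the median was -0.19. The fibroblast receptors Pdgfra and Pdgfrb rose by 0.77 and 0.71, while the pancreatic enzymes Cpa1, Ctrb1 and Cela1 were lower, at -2.86, -5.47 and -1.72 (edgeR, adjusted p between 0.00942 and 0.0391). The pancreatic markers summed to 153, 11.4 and 23.7 CPM in WT footprints and 4.54, 8.05 and 7.06 CPM in KO. WT replicate 1 thus stood far above the other libraries. In brain footprints WT replicate 1 was also the highest, at 53.4 CPM, with 2.70 CPM in the next library. In kidney RNA-seq the sums were 29.6 to 44.6 CPM in WT and 41.0 to 53.4 CPM in KO. There, 5 or 6 of the 8 pancreatic genes were at 0 reads in each library, so few genes carry these sums. No urothelial, parietal or podocyte, adrenal, adipose, choroid plexus or neuron marker was called in kidney, and no marker of any list was called in kidney RNA. No neuron marker passed the count filter in kidney Ribo-seq. The parietal and podocyte markers summed to 125 to 149 CPM in WT kidney RNA-seq and 91.1 to 109 CPM in KO. In disome-seq they summed to 68.0 to 82.0 CPM in WT and 45.8 to 59.2 CPM in KO. Their footprint sums overlapped, at 74.2 to 123 CPM and 85.8 to 92.8 CPM. Of these 6 genes, 1 had a positive fold change in RNA and 0 in footprints. What lay behind this was not tested.

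Brain served as a tissue in which kidney injury plays no part. In brain RNA-seq none of 7 members tested was called, with 1 at an unadjusted p under 0.05 and 0 by DESeq2, against 12 of 89237 transcripts, or 0.0134%. Spp1 was that member, at 1345, 1182 and 1356 reads in WT and 2107, 1351 and 1310 in KO. On scaled totals this was 14.8, 12.5 and 13.8 CPM against 16.0, 17.2 and 16.6 CPM, so the groups did not overlap, with a fold change of 0.28 (SE 0.11, adjusted p = 0.898, edgeR). In 1 of 10 members the brain RNA groups were apart, against 9.51% of all transcripts. In brain Ribo-seq none of 6 members tested was called, with 0 at an unadjusted p under 0.05 and 0 by DESeq2, against 28 of 81112 transcripts, or 0.0345%, and the groups overlapped in all 10 members, while 18.1% of all transcripts had them apart. Vcam1 differed by 0.25 (SE 0.17) in brain RNA and 0.23 (SE 0.15) in brain footprints. Ccl5 had 6 to 15 reads in WT brain RNA-seq and 6 to 14 in KO.

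Whether KO acted differently in kidney and brain was tested by a tissue by genotype interaction. In RNA-seq none of 10 members was called, with 1 at an unadjusted p under 0.05 and 0 by DESeq2, against 1 of 92865 transcripts, or 0.00108%. Ccl5 had the largest term in that test, 2.21 (SE 0.65, adjusted p = 0.585, edgeR), apart from Havcr1, whose brain libraries were at 3 reads or fewer. Without KO kidney replicate 1 the Ccl5 term was called, at 2.41 (adjusted p = 0.0466), in a fit that called 6444 transcripts. In Ribo-seq none of 8 members was called, with 2 at an unadjusted p under 0.05 and 0 by DESeq2, against 68 of 88666 transcripts, or 0.0767%. Those were Vcam1 (0.68, SE 0.27, adjusted p = 0.553) and Krt8 (0.86, SE 0.34, adjusted p = 0.557, edgeR). A kidney-restricted change was therefore not shown for any member.

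The levels in WT tissue are separate from the knockout contrast, though they come from the same WT libraries. Per length, as RPKM, which divides CPM by transcript length in kilobases, WT kidney RNA was highest for Spp1, at 169 ± 30.6 (SD, n = 3). Krt8 followed at 10.2 ± 0.624 and Krt18 at 6.14 ± 2.53, Krt18 reaching 8.92 in its highest library. Krt19 (1.12 ± 0.389), Lcn2 (0.978 ± 0.457), Vcam1 (0.944 ± 0.247) and Ccl5 (0.812 ± 0.0105) followed. The ranges of Krt19, Lcn2 and Vcam1 overlapped, and those of Lcn2 and Vcam1 also held Ccl5, while each Krt19 library lay above each Ccl5 library. The Ccl5 libraries held 21 to 23 reads each, so the Ccl5 SD can be smaller than the counting error and the order of Krt19 and Ccl5 is not secure. Havcr1 (0.452 ± 0.210), Timp1 (0.172 ± 0.149) and Sox9 (0.131 ± 0.0433) were lowest.

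Against WT brain, 9 of the 10 members were called in RNA-seq (64.1% of 88731 transcripts were called), with 7 higher in kidney. Krt8 was higher by 6.94 (SE 0.26), Krt19 by 6.01 (SE 0.55) and Spp1 by 4.42 (SE 0.22) on the log2 scale. Havcr1 was at 0 reads in the 3 WT brain libraries and at least 26.9-fold higher in kidney RNA against a floor of 3 reads a library. Vcam1 (-0.76, SE 0.25) and Sox9 (-3.63, SE 0.40) were lower in kidney than in brain, where Sox9 is known as an astrocyte factor. The Vcam1 call was lost without WT brain replicate 1 or 3 or WT kidney replicate 1 (adjusted p = 0.0795, 0.0616 and 0.0894, edgeR). In Ribo-seq all 8 members tested were called (70.9% of 82957 transcripts were called), Vcam1 at -1.20 (SE 0.19) and Sox9 at -4.90 (SE 0.26) again being lower in kidney, and Havcr1 at least 5.67-fold higher. The Lcn2 call, 0.98 (adjusted p = 0.0339, edgeR), was lost by DESeq2 (adjusted p = 0.0668), with counts summed per gene (0.0508) and without WT brain replicate 1 or 3 or WT kidney replicate 2 or 3 (0.0647 to 0.16).

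**Figure D4:**
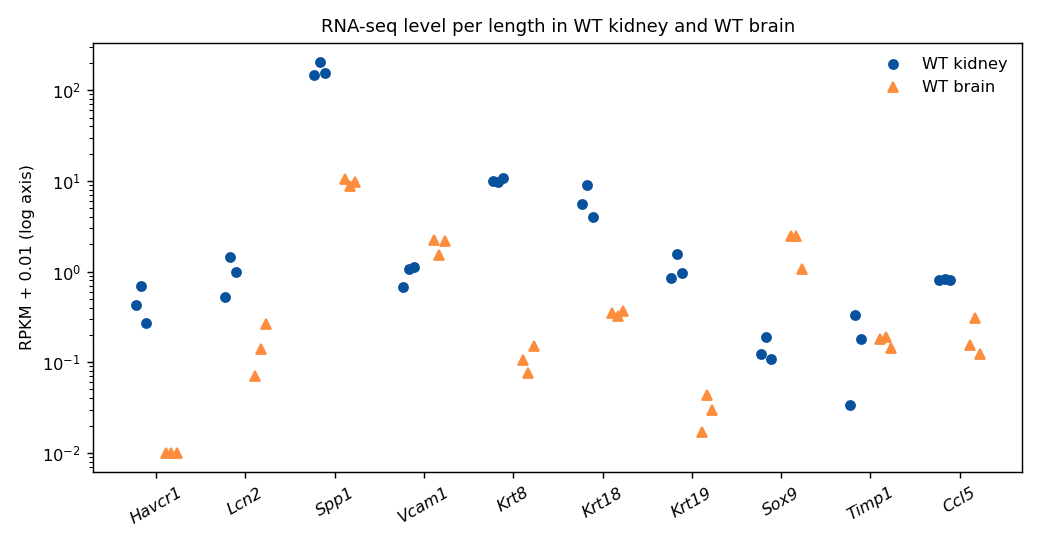
RNA-seq level per length of each marker in the 3 WT kidney (circles) and 3 WT brain (triangles) libraries, as RPKM plus 0.01 on a log axis. Spp1 and the keratins are higher in kidney, Vcam1 and Sox9 are higher in brain, and Timp1 overlaps.

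RNA coverage along transcripts varied between libraries, in kidney and in brain. Spp1 has a second annotated model of 669 bases that covers its 5′ part, beside the full transcript of 1411 bases. Reads on the 5′ model were 14.0, 8.51 and 24.3% of those on the full transcript in WT kidney RNA-seq and 10.9, 1.39 and 2.08% in KO. KO replicates 2 and 3 thus held fewer 5′ reads than any WT library, and KO replicate 1 lay inside the WT range. In footprints the share lay between 61.4 and 63.4% in WT, and between 61.7 and 62.2% in KO. Over 2110 such pairs of transcripts, the median share in kidney RNA-seq was 5.93, 4.18 and 10.2% in WT and 4.95, 1.96 and 2.40% in KO. Brain RNA-seq had a like pattern. The Spp1 share there was 26.0, 28.1 and 35.4% in WT and 31.8, 19.2 and 21.4% in KO. The median over 2553 pairs was 8.60, 9.48 and 14.2% in WT brain and 12.4, 6.46 and 6.71% in KO brain. Levels per length from the RNA libraries of both tissues may be affected by this gradient. Its part in the RNA values of the members was not tested.

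The genes whose pattern was most like that of each member were sought over the 12 kidney RNA-seq and Ribo-seq libraries, after centring log2 CPM within each assay, among 9956 or 9957 genes with enough reads. These correlations share libraries and depth and are descriptions. Vcam1 was most like Tnxb (r = 0.941), which encodes the matrix protein tenascin-X, and Ccl5 most like D17H6S53E (r = 0.945). Krt18 was most like Eif3g (r = 0.957) and Krt7 (r = 0.944), the latter another simple-epithelial keratin. Krt8 was most like Rictor (r = 0.940), and Havcr1 most like Rbm12b1 (r = 0.938). The closest genes were Zfp36 for Spp1 (r = 0.932), Cyp2d22 for Krt19 (r = 0.920), Slc7a4 for Lcn2 (r = 0.917) and Rbm12b2 for Sox9 (r = 0.903).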

How the data were processed

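The authors trimmed reads, removed rRNA reads, aligned with STAR with multimapping reads allowed (mm10/GRCm38.p6) and counted with featureCounts. They deposited raw counts per transcript, without normalization; tool versions are not given in the sources used here. A read that lies on several transcripts can enter each. The 30 mouse columns were used. A second table lists human transcripts under 28 columns titled as mouse samples and was not used, so the HEK293T samples were not analysed here.

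Transcripts were joined to GENCODE M21 (141374 of 142604 matched). KO was compared with WT in edgeR 4.0.16 (R 4.3.3) by glmQLFTest after filterByExpr and TMM, with genotype as the only covariate, and TE and tissue differences as interaction terms. p-values were adjusted by Benjamini-Hochberg over all transcripts tested, with a threshold of 0.05. SE was obtained by dividing the size of the log2 fold change by the square root of the F statistic. The fit was tested on simulated data. Alternatives were DESeq2 1.42.0, library totals, other count filters, gene sums, the transcript with most reads, a replicate block and leaving out libraries. They were read for the members and for counts over all transcripts. Values of other list and marker genes come from the main edgeR fit alone.

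Members and lists were chosen with earlier results of these data known. Named genes were the 10 members, up to 4 called genes of each list with the largest change (or up to 2 with the lowest p where none was called), and for each member the 2 genes most like it. Nkg7, Cd8a, Cd3e and Ly6g of the leukocyte list, and RNA values of Cxcl10, Fn1 and Hmox1, were added after their values were seen. A further gene of the fibrosis list is not reported here. Intervals of counting error were not computed. For members with few reads the spread between libraries can be smaller than that error.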

Additional observations from a re-analysis of the deposited data

How the results depend on the processing

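The number of members called stayed within 1.5 times of its value in 143 of 150 alternatives and no direction of a called member was reversed. Most comparisons had 0 members called in the main fit, and there an alternative with 0 counted as unchanged. The 143 is therefore a weak measure of stability. In kidney RNA-seq DESeq2 called 1 member against 0 by edgeR, and leaving out 1 library at a time gave 0 to 1, the 1 (Ccl5) without KO replicate 1. In kidney Ribo-seq leaving out 1 library gave 0 to 1, the 0 without KO replicate 2 or 3, and in the tissue by genotype term of RNA-seq 0 to 1, the 1 (Ccl5) without KO kidney replicate 1. With at least 10 reads required in every library, WT kidney against WT brain had 5 members called in RNA-seq and 5 in Ribo-seq, since fewer members were tested. The cause of the other differences was not tested.

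Pairing by replicate number was not shown. Deviations of same-numbered kidney WT and KO libraries correlated at -0.08, 0.56 and -0.41 in RNA-seq and -0.11, 0.05 and 0.04 in Ribo-seq. Same-numbered kidney RNA-seq and Ribo-seq libraries of 1 genotype correlated at 0.05 to 0.13. With 3 libraries a group these values cannot decide whether libraries were paired. With a replicate block, 0 members were called in kidney RNA-seq, 1 in kidney Ribo-seq, 0 in TE, 9 in WT tissue RNA-seq and 8 in WT tissue Ribo-seq, as without it, and 4010 against 5838 transcripts in kidney Ribo-seq.

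Counts over all transcripts moved widely between alternatives. Kidney RNA-seq called 7 transcripts, 540 by DESeq2 and 12466 without KO replicate 1. Kidney Ribo-seq called 5838, 3533 by DESeq2, 9936 with no count filter, and 517 and 285 without KO replicates 2 and 3. TE called 0, 4129 by DESeq2 and 16331 without KO RNA replicate 1. Members with fewer than 50 reads a library (among them Sox9 and Timp1 in both kidney assays and Ccl5 in Ribo-seq) are limited by depth.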
